A study of Mus musculus with 8 samples.

Results

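The 41 genes described here encode parts of the mouse kinetochore, the centromere and the spindle assembly checkpoint. They were chosen by symbol, for what their proteins are known to do, and all 41 were found among the 47643 genes of the expression tables. Each of them averaged at least 10 normalized counts over the 8 libraries, so all 41 were among the 12029 genes tested.

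The libraries came from peritoneal macrophages (MΦ), phagocytes washed out of the abdominal cavity of C57 BL/6 mice and kept as the cells that adhered to plastic. In MΦ+Dimerizer the macrophages received 10 nM B/B Homodimerizer alone (4 libraries), and in MΦ+FV-Casp8+Dimerizer, called the co-culture below, they shared the well with NIH 3T3 FV-hCasp8 cells when the same dose was added (4 libraries). NIH 3T3 is a mouse fibroblast line; these cells came from single clones selected after viral transduction with a caspase-8 that the drug joins into active dimers, so that it kills them by apoptosis. A membrane with 5 μm pores separated both cell types, and macrophage RNA was taken 48 h after the drug. Both groups thus had the same strain, drug, dose and time. The groups differed in the presence of the fibroblasts and in their death at once. These cannot be told apart here, because no macrophages cultured with living fibroblasts were sequenced. The age and sex of the mice were not given for these libraries. The study describes its replicates as macrophages of individual animals.

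A kinetochore is the protein structure that ties a chromosome to the microtubules of the spindle when a cell divides. It is built outwards from chromatin marked by the histone CENP-A: the constitutive centromere-associated network (CCAN) sits on that chromatin, the KNL1, MIS12 and NDC80 complexes are added on top and hold the microtubule, and a fibrous corona covers kinetochores that have no microtubule yet. Such kinetochores also switch on the spindle checkpoint, which delays the separation of chromosomes until every one is attached. Most of these proteins are made mainly by cells that are preparing to divide, and resident peritoneal macrophages are known for dividing rarely in the steady state.

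The values are normalized counts from 3′ mRNA sequencing, in which each molecule gives a tag near its end, so a count does not grow with the length of the transcript. Each library held between 5904441 and 11506556 reads. The macrophage genes Adgre1 and Csf1r were high in all 8 libraries, at 7713 ± 412 and 9754 ± 1046 normalized counts (mean ± SD, n = 4) with dimerizer alone and at 9277 ± 581 and 8532 ± 495 in the co-culture. Macrophage markers were not all steady between the groups. Of 8 such markers, 3 were called higher in the co-culture (Adgre1, Itgam and Timd4), 1 lower (Gata6, log2 fold change -0.71) and 4 were not called. Transcripts used as markers of other cell types were also present. The fibroblast gene Col1a1 stood at 2120 ± 447 with dimerizer alone and at 784 ± 148 in the co-culture, and the summed level of 10 fibroblast markers was lower in every co-culture library (2143 to 3261) than in any library with dimerizer alone (4819 to 7517). Most of that sum was Col1a1 and Col1a2. Of the 7 fibroblast markers tested, 4 were called lower. Col3a1, Thy1 and Prrx1 were not called, with log2 fold changes of -0.25, 0.21 and 0.28. NIH 3T3 cells are mouse cells too, so their reads cannot be told from those of the macrophages by sequence. Summed levels of 6 B cell markers ran from 689 to 4139 with dimerizer alone and from 1901 to 5205 in the co-culture, and those of 5 mast cell markers from 564 to 3706 and from 521 to 1474. Like the fibroblast markers, 3 other lists had lower sums in every co-culture library than in any library with dimerizer alone. The sum of 5 neutrophil markers lay between 2052 and 5233 with dimerizer alone and between 1020 and 1740 in the co-culture, with Mmp8 and Csf3r called lower and Ly6g at 0 in all 8 libraries. The sum of 5 mesothelial markers lay between 151 and 216 and between 56.0 and 103, and all 3 that were tested were called lower. The sum of 5 dendritic cell markers lay between 65.8 and 119 and between 51.7 and 60.7, with Zbtb46 and Clec9a called lower (Clec9a from 45.7 ± 15.7 to 3.8 ± 2.5), Ccr7 called higher and Xcr1 at 0 with dimerizer alone and between 0.7 and 1.5 in the co-culture. Apart from Adgre1, Csf1r, Col1a1 and those at 0 in a group, the markers were named after their values were seen. No T cell marker reached a mean of 10. The cells behind the markers of other cell types were not identified, and their part in the results on the kinetochore genes was not tested.

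Transcripts for most of the kinetochore were more abundant in MΦ+FV-Casp8+Dimerizer. Of the 41 genes, 36 were higher in the co-culture and 0 lower, and 5 were not called: Cenpa, Mis18a, Cenpo, Cenpt and Zwint. The test was limma on log2(normalized count + 1) with Benjamini-Hochberg adjustment over all 12029 genes at an adjusted p of 0.05, and it called 15% of all tested genes higher and 28.7% changed in either direction. The median log2 fold change of the 41 genes was 1.56, and that of all tested genes was 0.007. A log2 fold change above 1 was reached by 30 of the 41 genes and by 4.13% of all tested genes, and one above 2 by 6 of the 41 (Oip5, Nuf2, Cenpi, Bub1, Cenpf and Ndc80) and by 0.964% of all. In 32 of the 41 genes every co-culture library was above every library with dimerizer alone, as in 15.3% of all tested genes. Without both the highest and the lowest co-culture library, a setting chosen after seeing the data, 33 of the 41 were called. In RNA from whole wells, more cells that express a gene and more of its RNA per cell cannot be told apart.

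**Figure D1:**
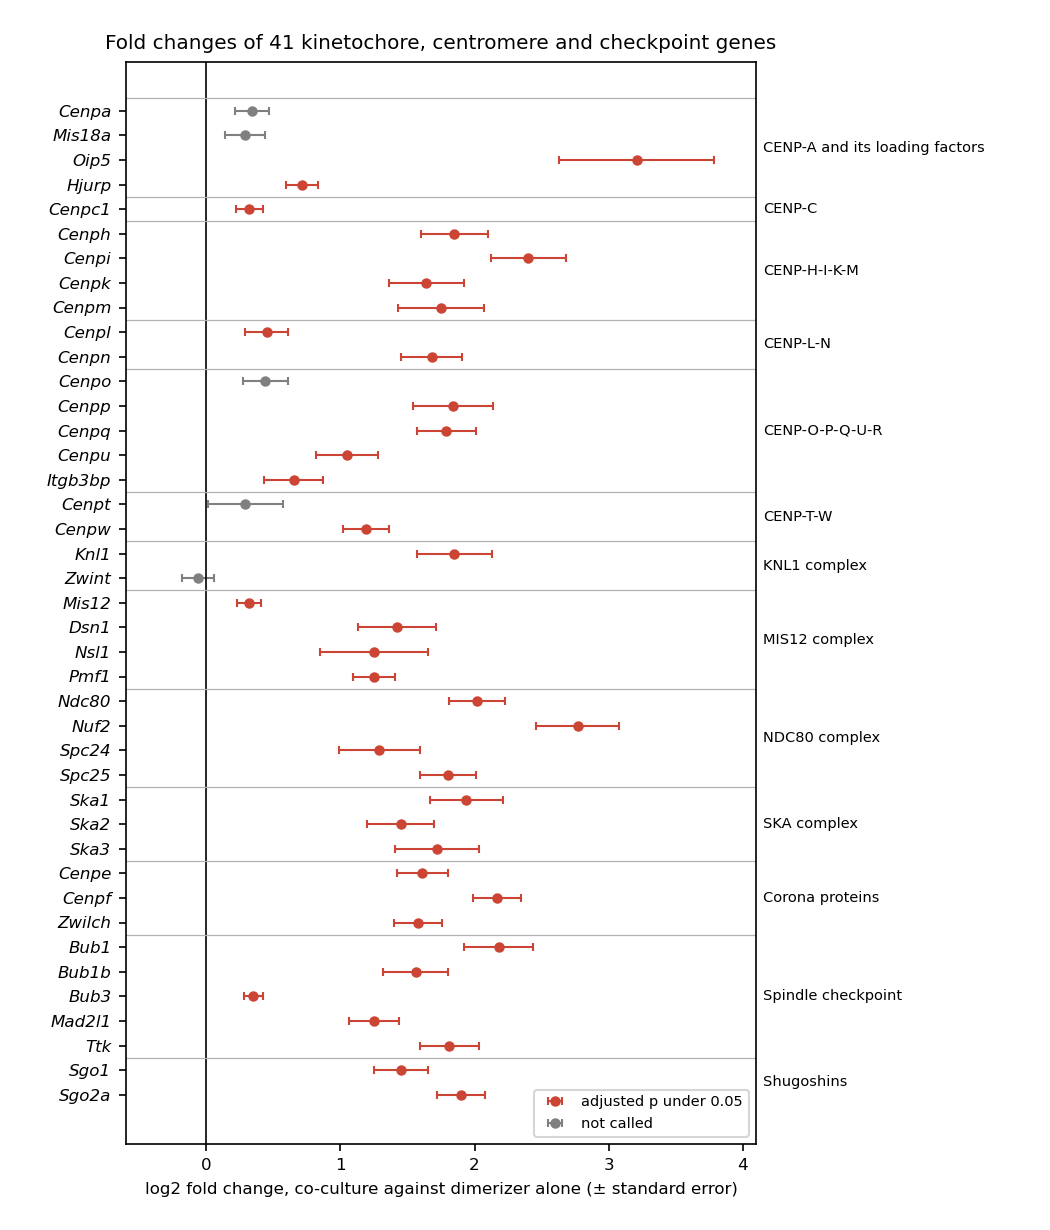
Log2 fold change (x axis, co-culture against dimerizer alone, with its standard error from limma) of each of the 41 genes, grouped by complex. Red points have an adjusted p under 0.05 and grey points do not. The 5 grey genes are Cenpa, Mis18a, Cenpo, Cenpt and Zwint, and Oip5 at 3.21 and Nuf2 at 2.77 lie farthest to the right.

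The fold changes covered a wide range. The 30 genes above 1 began with Cenpu at 1.05, and the next gene below it was Hjurp at 0.71, followed by Itgb3bp at 0.65. Called genes with a log2 fold change under 0.5 numbered 4: Cenpl, Bub3, Cenpc1 and Mis12. The 14 genes that averaged 100 normalized counts or more over all libraries had a median log2 fold change of 0.58, and 6 of them were above 1. Among the 27 genes with a lower mean the median was 1.68, and 24 were above 1.

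**Figure D2:**
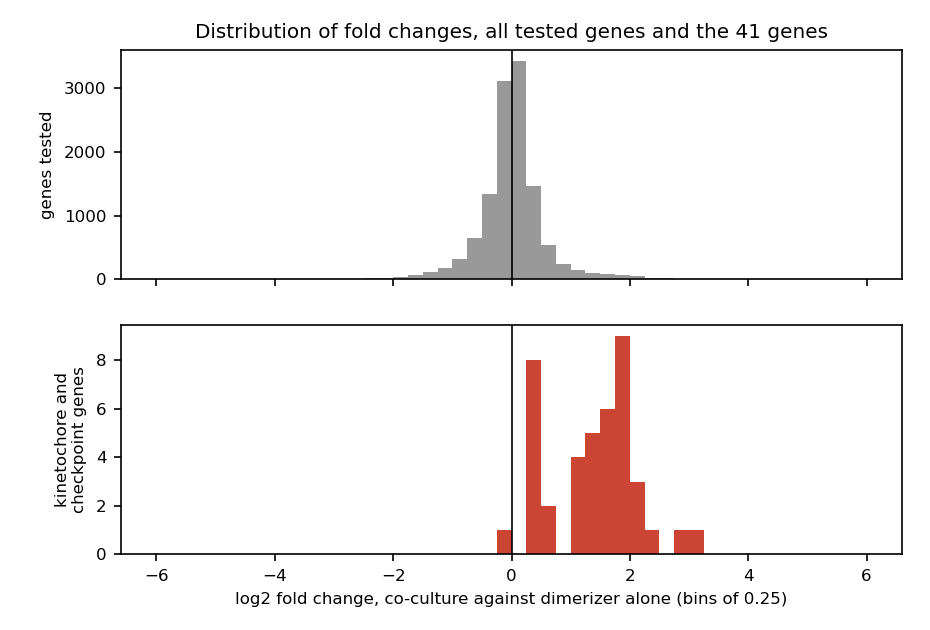
Number of genes (y axis) in bins of log2 fold change, co-culture against dimerizer alone (x axis, bins of 0.25), for all 12029 tested genes (top) and for the 41 kinetochore, centromere and checkpoint genes (bottom). All genes centre near 0, while 40 of the 41 genes lie above 0 and 30 above 1.

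Genes that work in late cell cycle often carry short shared motifs near their start, so the promoters of the 41 genes were searched for them. Windows of 300 bases, from 250 before to 50 after the start (RefSeq, GRCm38.p6), were at hand for 37 of the 41 genes, without Nsl1, Zwilch, Spc24 and Ska1. The cell cycle genes homology region (CHR, searched as TTTGAA or TTCGAA) is known as the element through which the DREAM and MuvB complexes bind genes of mitosis, and CCAAT as the element of the factor NF-Y. Both strands were read, and neither set of letters contains the other. A CHR match was present in 19 of the 37 genes (51.4%), against 21.7% of 27025 genes in the table and 16.5% of the 9082 tested genes with a window. Within 50 bases of the start, a window chosen after seeing the data, it was present in 15 of 37 (40.5%) and in 4.5% of those 9082 genes. CCAAT was matched in 26 of the 37 (70.3%) against 42.7% of the tested genes. A set of 4 E2F-like strings (TTTCCCGC, TTTCGCGC, TTTGCCGC and TTTGGCGC) was matched in 4 of the 37, Cenpl, Cenpm, Dsn1 and Mis18a (10.8%), and in 4.9% of the tested genes. A match is a description of the letters and shows no binding.

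Stretches of up to 30 bases around the CHR match are shown for 10 genes, because they let the match be compared between genes that rose by different amounts. Each reads 5′ to 3′ along the gene with the match in capitals, and TTCAAA is TTTGAA read from the other strand. In Bub3 the match lies before the start, and in the others between 2 and 36 bases after it.
Bub1, log2 fold change 2.18, chr2:127831828-127831857, minus strand: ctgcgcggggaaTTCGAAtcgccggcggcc
Cenpf, 2.17, chr1:189688067-189688096, minus strand: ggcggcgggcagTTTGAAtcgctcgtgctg
Ndc80, 2.02, chr17:71526811-71526840, minus strand: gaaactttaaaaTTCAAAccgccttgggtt
Knl1, 1.85, chr2:119047138-119047167, plus strand: agggcggttagaTTTGAAtacttcagggac
Ttk, 1.81, chr9:83834684-83834713, plus strand: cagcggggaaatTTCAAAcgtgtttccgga
Spc25, 1.80, chr2:69206172-69206201, minus strand: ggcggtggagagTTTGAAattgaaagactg
Sgo1, 1.45, chr17:53689271-53689300, minus strand: gtaacgcagaatTTCGAAtgtggcggcggt
Hjurp, 0.71, chr1:88277543-88277572, minus strand: tgcgtaaatactTTTGAAagaccctattag
Bub3, 0.35, chr7:131560315-131560344, plus strand: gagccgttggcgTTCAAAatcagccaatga
Cenpa, 0.34 and not called, chr5:30666890-30666919, plus strand: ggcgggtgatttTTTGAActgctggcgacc

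The arrangement of both motifs can be seen in the bases from 100 to 11 before the start of Bub1 and Ttk, in which CCAAT or its reverse ATTGG is in capitals. In each of them 2 such boxes precede the CHR match shown above.
Bub1, chr2:127831870-127831959, minus strand: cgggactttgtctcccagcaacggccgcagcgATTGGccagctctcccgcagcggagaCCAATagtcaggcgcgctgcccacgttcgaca
Ttk, chr9:83834589-83834678, plus strand: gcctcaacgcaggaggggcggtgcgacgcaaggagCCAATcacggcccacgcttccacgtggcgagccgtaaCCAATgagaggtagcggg

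Called genes were found with and without these letters. A CHR match anywhere in the window was found in 17 of the 32 called genes with a window and in 2 of the 5 that were not called. Within 50 bases of the start, the range chosen after seeing the data, it was found in 14 of the 32 and in 1 of the 5. Cenpa, which was not called, carries the same TTTGAA as Cenpf, whose log2 fold change was 2.17. Nuf2, with a log2 fold change of 2.77, had no CHR, CCAAT or E2F-like match in its window.

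The centromere itself is marked by CENP-A, a variant of histone H3, and the genes of this step moved by very different amounts. Cenpa (chromosome 5, 30666777 to 30674830, plus strand, GRCm38) read 300.9, 243.8, 251.8 and 280.1 normalized counts in replicates 1 to 4 with dimerizer alone, and 302.1, 455.1, 299.1 and 320.3 in the co-culture. Replicate 2 of the co-culture stood far above the rest, and the other co-culture libraries overlapped those with dimerizer alone or lay just above them. The log2 fold change was 0.34 (standard error 0.13, adjusted p = 0.0728 from limma). With the replicate number as a block in the fit, the adjusted p from limma was 0.0446.

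Oip5 encodes a subunit of the MIS18 complex, which prepares centromeres to receive new CENP-A. It read 0, 1.3, 4.6 and 7.9 with dimerizer alone and 24.1, 42.1, 29.5 and 24.3 in the co-culture, so the groups were far apart. These values rest on 0, 1, 5 and 8 reads and on 21, 56, 29 and 36 reads, and the count of 0 allows a level of up to 4.12 normalized counts (3 reads, counting error only). The group means differed 8.7-fold. On the log2 scale limma gave 3.21 (standard error 0.58, adjusted p = 0.00102). At such low counts the value depends on the pseudocount, with 3.58 at a pseudocount of 0.5 and 2.12 at one of 5. The gene lies on chromosome 2 from 119609512 to 119618469 on the minus strand. It overlaps Nusap1 on the opposite strand, which had a log2 fold change of 2.66 and does not reach the last 500 bases of Oip5. Where the reads of Oip5 fall and the part of Nusap1 in its count were not tested.

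Mis18a, which encodes the partner of the Oip5 protein in the same complex, read 170.4, 167.7, 234.3 and 184.8 with dimerizer alone and 176.9, 287.6, 223.8 and 246.8 in the co-culture. Replicate 3 with dimerizer alone lay above co-culture replicates 1 and 3, and co-culture replicate 1 lay also below replicate 4 with dimerizer alone. The groups thus overlapped, and limma did not call the log2 fold change, 0.29 with a standard error of 0.15 (adjusted p = 0.163). Without co-culture replicate 1 it passed, at 0.42 with an adjusted p of 0.0375 from limma. Hjurp, the chaperone that carries CENP-A to the centromere, rose from 182.4 ± 23.9 to 298.7 ± 36.9, and every co-culture library (251.5 or more) was above every library with dimerizer alone (207.5 or less).

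The CCAN is the inner layer that stays on the centromere through the whole cell cycle. Of its 14 genes, 12 were higher in the co-culture, by log2 fold changes from 0.32 (Cenpc1) to 2.40 (Cenpi). Cenpc1, whose protein binds the CENP-A nucleosome directly, read 169.0, 165.1, 167.6 and 152.3 with dimerizer alone and 175.7, 227.5, 208.5 and 210.4 in the co-culture. The groups did not overlap, but replicate 1 of the co-culture was only just above them. The log2 fold change was 0.32 (standard error 0.10, adjusted p = 0.0327 from limma), and the call was lost when any library except co-culture replicate 1 was left out (adjusted p from 0.0506 to 0.0885).

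The 4 genes of the CENP-H-I-K-M group, a subcomplex needed to hold the network together, all rose, with a median log2 fold change of 1.80. Their summed level was 87.9 ± 8.4 with dimerizer alone and 336.7 ± 110.8 in the co-culture. Cenpi, on chromosome X from 134308084 to 134362639 (plus strand), read 12.4, 9.0, 15.7 and 11.8 with dimerizer alone. In the co-culture it read 55.1, 117.1, 63.1 and 51.2, so that even the lowest of these libraries was over 3 times the highest without fibroblasts. Its log2 fold change was 2.40 (standard error 0.28, adjusted p = 2.98e-05 from limma). Cenph, Cenpm and Cenpk had log2 fold changes of 1.85, 1.75 and 1.64, and the groups did not overlap in any of them.

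CENP-L and CENP-N form a pair, and CENP-N contacts CENP-A. Cenpn read 24.7, 28.4, 18.5 and 18.7 with dimerizer alone and 56.3, 102.1, 82.4 and 61.4 in the co-culture, with no overlap and a log2 fold change of 1.68. Cenpl read 103.1, 122.5, 137.0 and 116.0 with dimerizer alone and 128.6, 219.3, 169.9 and 148.3 in the co-culture. Replicate 1 of the co-culture lay inside the range of the libraries with dimerizer alone. The log2 fold change of Cenpl was 0.45 (standard error 0.16, adjusted p = 0.0443 from limma), and it lost the call without 1 of 6 libraries (replicates 1, 2 and 4 with dimerizer alone and replicates 2, 3 and 4 of the co-culture), with adjusted p from 0.0562 to 0.127.

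The CENP-O-P-Q-U-R group binds on top of the network and helps to recruit the kinase PLK1 and to hold microtubules. Cenpp (log2 fold change 1.84), Cenpq (1.79) and Cenpu (1.05) rose with no overlap between groups. Cenpp and Cenpu each reach a tested gene of the opposite strand within their last 500 bases (Ippk, log2 fold change 0.43, and Primpol, 0.07), and the sources used here do not say whether reads were counted by strand. Itgb3bp, which encodes CENP-R, read 33.0, 27.1, 30.6 and 47.2 with dimerizer alone and 42.5, 70.6, 60.0 and 45.9 in the co-culture. Replicate 4 with dimerizer alone lay above 2 co-culture libraries. The log2 fold change was 0.65 (adjusted p = 0.0406 from limma), and the call was lost without 1 of 5 libraries (replicates 1, 2 and 3 with dimerizer alone and replicates 2 and 3 of the co-culture), with adjusted p from 0.0803 to 0.124.

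Cenpo of the same group did not pass. It read 53.6, 64.5, 54.6 and 49.1 with dimerizer alone and 58.6, 98.4, 78.3 and 70.8 in the co-culture. Co-culture replicate 1 lay within the other group and the remaining co-culture libraries lay above it. The log2 fold change was 0.44 (standard error 0.17, adjusted p = 0.0759 from limma), and without co-culture replicate 1 it was 0.56 with an adjusted p of 0.0292. With the replicate number as a block in the fit, the adjusted p from limma was 0.0386. Within its last 500 bases Cenpo meets Adcy3 on the opposite strand, whose log2 fold change was 1.09.

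CENP-T and CENP-W are histone-fold proteins, and CENP-T is a direct anchor for the NDC80 complex. Cenpw read 49.5, 51.6, 51.9 and 52.1 with dimerizer alone, the narrowest spread of any gene named here in relation to its mean, and 101.1, 170.5, 117.0 and 97.1 in the co-culture. It rose by 1.19 on the log2 scale (standard error 0.17, adjusted p = 0.000188 from limma). Cenpt read 38.5, 25.8, 23.1 and 33.4 with dimerizer alone and 21.8, 48.1, 50.9 and 32.4 in the co-culture. Its lowest value of all 8 libraries was a co-culture library, and limma did not call its difference of 0.29 on the log2 scale (standard error 0.28, adjusted p = 0.481).

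Further out, KNL1 is the large scaffold on which the checkpoint proteins BUB1 and BUB3 assemble, and ZWINT is the protein that binds it. Knl1 (chromosome 2, 119047119 to 119105501, plus strand) read 57.7, 33.5, 40.7 and 33.4 with dimerizer alone and 76.9, 210.3, 200.4 and 145.6 in the co-culture. The groups did not overlap, and co-culture replicate 1 was much the lowest of its group. Its log2 fold change was 1.85 (standard error 0.28, adjusted p = 0.000293 from limma).

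Zwint (chromosome 10, 72654845 to 72674964, plus strand) was the only gene of the 41 with a negative log2 fold change. It read 416.4, 428.2, 314.8 and 345.9 with dimerizer alone and 340.0, 425.0, 323.5 and 348.6 in the co-culture. Both groups covered nearly the same range, and the log2 fold change was -0.06 (standard error 0.12, adjusted p = 0.734 from limma).

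The MIS12 complex connects the CCAN to the outer kinetochore. All 4 of its genes were higher in the co-culture, with Dsn1 at a log2 fold change of 1.42, Pmf1 and Nsl1 at 1.25 and Mis12 at 0.32. Mis12 read 320.2, 304.4, 358.3 and 319.4 with dimerizer alone and 436.4, 403.3, 429.3 and 357.4 in the co-culture. Its co-culture replicate 4 fell just under the highest library with dimerizer alone. The adjusted p of Mis12 was 0.0178 from limma and 0.0518 without co-culture replicate 3. Nsl1 read 6.9, 15.5, 13.9 and 7.9 with dimerizer alone and 11.5, 47.3, 31.5 and 27.0 in the co-culture. Its groups overlapped through co-culture replicate 1, and its call (adjusted p = 0.0331 from limma) was lost without 1 of 5 libraries (replicates 1 and 4 with dimerizer alone and replicates 2, 3 and 4 of the co-culture), with adjusted p from 0.0711 to 0.11.

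The NDC80 complex is the part of the kinetochore that grips the microtubule: NDC80 and NUF2 form the end that binds it, and SPC24 and SPC25 form the end that binds the MIS12 complex. Its summed level had the largest ratio among the complexes with at least 2 genes, from 158.9 ± 13.5 with dimerizer alone to 629.2 ± 240.3 in the co-culture, or 3.96-fold. The CENP-H-I-K-M group was close to it, at 3.83-fold, and whether these ratios differed was not tested. Nuf2 (chromosome 1, 169497934 to 169531464, minus strand) read 15.1, 7.7, 13.9 and 10.8 with dimerizer alone and 54.0, 155.4, 88.5 and 68.8 in the co-culture. Every co-culture library was at least 3 times the highest library with dimerizer alone. The log2 fold change was 2.77 (standard error 0.31, adjusted p = 2.39e-05 from limma).

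The other genes of the complex rose too. Ndc80 read 34.4, 37.4, 40.7 and 35.4 with dimerizer alone and 94.2, 211.0, 190.2 and 145.0 in the co-culture, which is 2.02 on the log2 scale. Spc25 (log2 fold change 1.80) went from 82.2 ± 10.4 to 301.2 ± 111.1. Spc24 had the smallest change of the complex, at 1.29 (standard error 0.30, adjusted p = 0.0057 from limma). Its co-culture replicate 1, at 34.5, was barely above the highest library with dimerizer alone, at 30.5, while co-culture replicate 2 reached 120.9.

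The SKA complex joins NDC80 on the microtubule and keeps hold of its growing and shrinking end. Its genes all rose, with log2 fold changes of 1.94 for Ska1, 1.72 for Ska3 and 1.45 for Ska2, and no overlap between groups in any of them. Ska3 meets Sap18 on the opposite strand within its last 500 bases, and Sap18 had a log2 fold change of 0.06.

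All 3 corona genes rose, with no overlap between groups. Cenpf, a large protein of the nuclear matrix and the corona, read 118.2, 96.7, 106.5 and 121.9 with dimerizer alone and 344.6, 698.4, 571.7 and 458.5 in the co-culture. All co-culture libraries were far above the others, and Cenpf had the smallest adjusted p of the 41 genes (1.92e-06 from limma). Cenpe, a kinesin motor that carries chromosomes to the middle of the spindle, read 186.9, 170.3, 157.4 and 125.8 with dimerizer alone and 329.6, 663.8, 571.7 and 446.4 in the co-culture. Its log2 fold change was 1.61. Zwilch, part of the complex that brings dynein to the kinetochore, had a log2 fold change of 1.58.

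The spindle checkpoint genes were all higher, over a wide range of sizes. Bub1 encodes the kinase that marks the inner centromere and calls in shugoshin (chromosome 2, 127801122 to 127831865, minus strand). It read 35.7, 23.2, 21.3 and 32.4 with dimerizer alone and 78.1, 194.5, 143.4 and 125.4 in the co-culture. No library of one group came near the other, and the log2 fold change was 2.18 (standard error 0.26, adjusted p = 3.39e-05 from limma). Ttk, the kinase that starts the checkpoint by phosphorylating KNL1, had a log2 fold change of 1.81, Bub1b, which encodes the inhibitor BUBR1, one of 1.56, and Mad2l1, which encodes MAD2, one of 1.25. Mad2l1 rose from 171.5 ± 17.5 to 426.1 ± 154.3.

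Bub3, the adaptor that docks BUB1 and BUBR1 on KNL1, had the highest mean count of the 41 genes. It read 842.4, 771.3, 795.4 and 830.4 with dimerizer alone and 999.2, 1130.2, 979.6 and 1011.4 in the co-culture. The groups did not overlap and both were narrow, so that a log2 fold change of 0.35 passed (standard error 0.07, adjusted p = 0.00275 from limma). Fgfr2 on the opposite strand reaches the last 500 bases of Bub3, and it had a mean of 11.3 normalized counts against 920.0 for Bub3.

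The shugoshins guard the cohesin that holds sister chromatids together at the centromere. Sgo2a read 56.3, 55.5, 76.9 and 75.7 with dimerizer alone and 178.0, 309.4, 290.9 and 227.2 in the co-culture, which is 1.90 on the log2 scale. Sgo1 stood between 32.4 and 42.6 with dimerizer alone and between 71.2 and 142.7 in the co-culture, which is 1.45 on the log2 scale. The groups did not overlap in either gene.

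**Figure D3:**
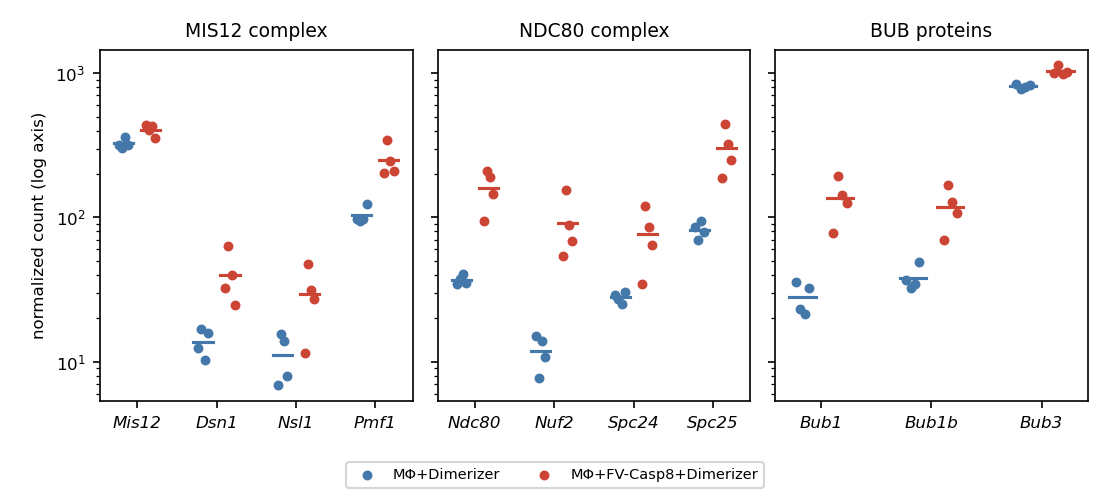
Normalized count in each library (y axis, log scale; 4 points and their mean as a line per group) for the genes of the MIS12 complex, the NDC80 complex and the BUB proteins. Mis12 and Bub3 have the highest counts of their panels and the smallest shift between groups, while Nuf2 moved from a mean of 11.9 to one of 91.7.

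Whether subunits of one complex changed by different amounts was asked directly, with the log2 ratio of 2 subunits in each library. This exact two-sided permutation test over the 70 relabellings of the libraries cannot give a p below 0.0286, and of 38 pairs within complexes 18 reached that value. After Benjamini-Hochberg adjustment over the 38 pairs their adjusted p was 0.0603, so 0 pairs passed. In such a pair the ratios of one group lay entirely on one side of those of the other.

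The largest differences were Knl1 over Zwint (1.91 on the log2 scale, standard error 0.36) and Bub1 over Bub3 (1.84, standard error 0.29). Next came Nuf2 over Spc24 (1.48, standard error 0.25), Cenpo over Cenpp (-1.40), Cenpo over Cenpq (-1.36) and Cenpl over Cenpn (-1.23, standard error 0.20). All 3 pairs of the BUB genes and 4 of the 6 NDC80 pairs were among the 18. None of the 3 SKA pairs was, with differences of 0.49 (standard error 0.28) for Ska1 over Ska2, 0.23 (0.36) for Ska1 over Ska3 and -0.26 (0.23) for Ska2 over Ska3, so these data leave room for differences of that order between the SKA genes.

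The co-culture libraries differed among themselves in nearly the same way for gene after gene. Summed over the 41 genes, the level was 4018, 3766, 3887 and 3815 normalized counts with dimerizer alone and 5869, 9854, 7892 and 6930 in the co-culture. The libraries with dimerizer alone stayed close together and every co-culture library was above them, with replicate 2 at the top and replicate 1 at the bottom. The ratio of the group means was 1.97, and it was between 1.78 (without co-culture replicate 2) and 2.12 (without co-culture replicate 1) when 1 library was left out.

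Replicate 2 was the highest co-culture library in 38 of the 41 genes, against 32.5% of all tested genes and 52.8% of the genes called higher. Replicate 1 was the lowest in 34 of the 41, against 26.9% of all tested genes and 42.4% of those called higher. The whole order of replicates 2, 3, 4 and 1, from high to low, was found in 28 of the 41 genes, in 7.57% of all tested genes and in 19.3% of the genes called higher. With dimerizer alone the highest library was replicate 1 in 13 genes, replicate 2 in 8, replicate 3 in 10 and replicate 4 in 10. Among the 36 called genes the highest co-culture library was 2.02 times the lowest at the median, from 1.15 for Bub3 to 4.12 for Nsl1. With dimerizer alone the median of this ratio was 1.39.

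The number of reads was 10459860 in co-culture replicate 2, 7852334 in replicate 3, 11506556 in replicate 4 and 6954153 in replicate 1, which was lowest in reads and in the summed level alike. The summed B cell markers were lowest in replicate 2 of both groups (689 and 1901 normalized counts), and so were the mast cell markers (564 and 521). The part of depth and of these cells in the order was not tested. Each of the 41 genes adds to this order from the same 4 libraries, so the genes are not separate observations of it.

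**Figure D4:**
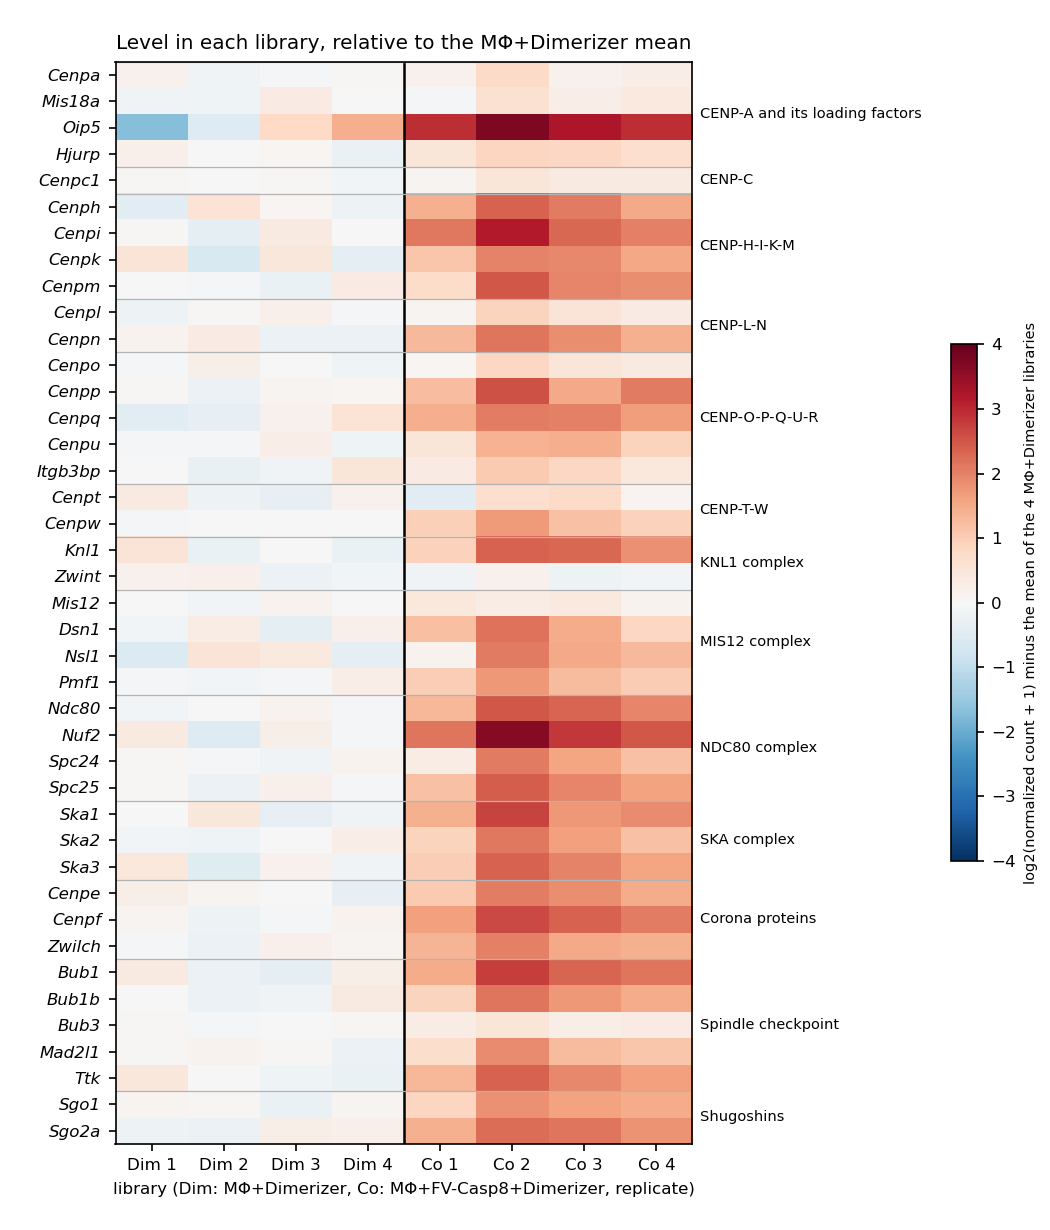
Level of each of the 41 genes (rows, grouped by complex) in each of the 8 libraries (columns), as log2(normalized count + 1) minus the mean of the 4 libraries with dimerizer alone (colour scale, log2 units). Red fills the co-culture columns for most genes, deepest in co-culture replicate 2. Rows such as Zwint, Mis12, Cenpc1, Bub3, Mis18a, Cenpa and Cenpt stay pale.

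A further 25 genes of the kinetochore and centromere outside the 41 were looked at in the same fit. Of these, 18 were called higher, 1 was called lower and 6 were not called, with a median log2 fold change of 1.07. Kntc1, which encodes the ROD partner of Zwilch, had a log2 fold change of 2.55 and went from 9.5 ± 2.8 to 60.4 ± 14.9. Birc5, the survivin of the chromosomal passenger complex, had one of 2.07, and Knstrn, a protein of kinetochores and spindle, one of 1.77. The lower gene was Clip1, a protein that tracks microtubule ends throughout the cell cycle, at -0.34 (standard error 0.09, adjusted p = 0.0132 from limma). The 6 uncalled genes were Mad1l1 (0.52, adjusted p = 0.0515 from limma), Cenpb (0.22), Bod1 (0.15), Mad2l1bp (0.10), Clasp2 (0.05) and Clasp1 (0.04). Clip1, Clasp1 and Clasp2 serve microtubules outside mitosis as well. Mad1l1 encodes MAD1, the partner of MAD2 at the kinetochore. Whether it differed from Mad2l1, at 1.25, was not tested.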

How the data were processed

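Macrophage RNA was sequenced as QuantSeq 3′ tags with molecular identifiers (8 libraries, 4 per group). The submitters' notes name STAR, HTSeq, DESeq2 and GRCm38. The deposited signal consists of normalized counts, whole numbers of reads that the authors divided by a size factor of the library: 100% of the values were whole within 0.001 reads. Symbols and coordinates came from GENCODE M21 (99.1% of IDs matched). R 4.3.3 with limma 3.58.1 fitted every gene averaging 10 or more, after log2(normalized count + 1), with a variance trend. edgeR 4.0.16 and DESeq2 1.42.0 on the recovered reads were alternatives. Python 3.11.15, pandas 2.3.3, numpy 2.4.6 and matplotlib 3.10.9 served for tables and figures.

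In simulated data limma recovered 29.9% of 67 changes of 1.5-fold, 74.6% of 67 of 2-fold and 92.4% of 66 of 4-fold. It made 7 false calls, with 11920 genes tested. Far fewer genes changed there than the 28.7% called in the real data. As the adjustment depends on that share, these percentages do not give the recovery in the real data. Intervals and limits cover counting error only. No 2 libraries of a group were duplicates.

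The 41 genes, the other lists and the tests were chosen with earlier results of these data known. Named were all 41 genes, of the 25 further genes the 3 of smallest adjusted p in each direction and all not called, and of the markers Col1a1, Adgre1, Csf1r and any at 0 in a group. Further markers were named after their values were seen. No gene of the 41 shared 10% or more of the 40-base words of its last 400 bases with another gene.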

Additional observations from a re-analysis of the deposited data

Results flagged for a closer look

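In 2 of 82 groups of 4 libraries (41 genes in both groups), 1 library stood apart from the rest by a gap, as a share of the group's range, above Dixon's critical value for 4 values; chance alone gives about 1 such case in 20. Cenpa read 455.1 normalized counts in co-culture replicate 2, a gap of 0.864 of the range, while the other co-culture libraries read 299.1 to 320.3. Pmf1 read 123.8 in replicate 4 with dimerizer alone, a gap of 0.865 of the range, while the others read 94.2 to 98.1, and all 4 co-culture libraries were above it, at 204.4 or more.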

How the results depend on the processing

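Over 20 alternative settings 31 to 38 of the 41 genes were called, and 31 kept their call under every setting in which they were tested. With a mean above 30, 37 of the 41 were tested and 32 called, beside 3130 called of 10169 tested over all genes. Oip5, Cenpp and Dsn1, among those 31, and Nsl1 were not tested there. Calls of Cenpc1, Cenpl, Itgb3bp, Mis12 and Nsl1 were lost under at least 1 setting, Cenpa, Mis18a and Cenpo were called under at least 1, and 0 called genes changed sign. Leaving out 1 library gave 31 to 38 of the 41 genes, 17 to 20 of the 25 further genes and 2741 to 3294 of all genes. An adjusted p under 0.01 gave 2072 of all genes (fewer by construction) and 31 of the 41. edgeR called 36 of the 41 and 3487 of all genes, and DESeq2 called 35 and 3326. Other ways of scaling the libraries, edgeR and DESeq2 included, gave a median log2 fold change of all genes between -0.023 and -0.005. It was 0.007 in the main fit. A CHR match in only the 250 bases before the start was present in 9 of 37 genes (24.3%) against 14.7% of the tested genes, since this window leaves out the 50 bases after the start.

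Same-numbered libraries of both groups correlated in their deviations from the group means at 0.088, 0.341, 0.293 and 0.194, and every library correlated best with its own number. The column labels number the libraries alike in both groups but do not say that a number stands for an animal. As 1 of these correlations was under 0.1, the libraries were not taken as pairs. With the replicate block 38 of the 41 genes and 4411 of all genes were called, with Cenpa (adjusted p = 0.0446) and Cenpo (0.0386) among them, and in the exact test of subunit pairs 0 pairs passed, where the smallest p possible is 0.125. Without the block, leaving out 1 library left 11 to 15 of the 38 pairs with an unadjusted exact p under 0.05, and 0 passed after adjustment. With 4 libraries a group, changes can go uncalled. In the simulated data this held for most 1.5-fold changes and for some of 2-fold and 4-fold.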
